A study of Mus musculus with 4 samples.

Results

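Histone genes were taken from the arrays as every gene name that begins with Hist1h to Hist4h, H2af, H1f or H3f. The rule used names only, and it found 76 probes for 63 of the 36435 gene names on the arrays. Of these genes, 47 were clustered genes, with names in Hist1h to Hist4h, and 16 were variant genes, with names in H2af, H1f or H3f. Where a gene had several probes, the brightest stood for it. RNA of 4 mouse cell populations had been labelled with Cy3 and hybridized to 1-colour Agilent arrays, with 1 array for each population. iPS-OSH and iPS-J were induced pluripotent stem (iPS) lines, which are body cells reprogrammed to a state like that of the early embryo, and both had the C57BL/6 background. ESC were embryonic stem cells of the 129SV background, and MEF were embryonic fibroblasts of the C57BL/6 background. The pluripotent lines shared a medium with the cytokine LIF, which MEF did not receive. How the iPS lines were derived, and from how many clones, is not given in the sources used here.

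Histones are the proteins around which DNA is wound, and the clustered genes supply them in bulk while DNA is copied. Messages of clustered genes normally end in a stem-loop in place of a poly(A) tail, although some clustered genes also make longer, polyadenylated forms in cells that stop dividing. Variant genes make polyadenylated messages through the whole cell cycle, and their proteins replace the bulk histones at chosen places in chromatin. Labelling kits of the type used here start from oligo-dT, which pairs with poly(A).

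The sequences of the probes matter for these genes, because many copies are nearly identical. Probes for 7 clustered H2A genes and for the variant gene H2afj read the same stretch of the H2A coding sequence, and in 20 of the 28 pairs of these probes at least 80% of bases were equal over at least 40 shared positions, by which they were grouped. In those pairs 80.9% to 95.8% were equal, and Hist2h2ac reached 80% with H2afj alone, in a comparison that allowed no gaps. A set of 4 of them begins at the same base of the coding sequence, and each is shown with its mm9 position and with capitals at the bases that differ from the Hist1h2af probe (chr13:23626113-23626172, plus strand). There were 5 such bases in Hist1h2ak (chr13:21845304-21845363, minus strand), 5 in Hist1h2an (chr13:21878695-21878754, minus strand) and 5 in Hist2h2aa2 (chr3:96049837-96049896, plus strand).
Hist1h2af: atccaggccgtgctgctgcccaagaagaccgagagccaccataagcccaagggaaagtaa
Hist1h2ak: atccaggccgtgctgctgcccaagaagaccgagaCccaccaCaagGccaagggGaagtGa
Hist1h2an: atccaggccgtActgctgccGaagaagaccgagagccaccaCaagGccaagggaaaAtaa
Hist2h2aa2: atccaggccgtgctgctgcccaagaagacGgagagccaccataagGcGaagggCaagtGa
Such probes may take up message of other H2A genes, so a gene name beside such a value names the probe, and the value may be that of several H2A genes. The same holds for the probes of Hist1h4c, Hist1h4d, Hist1h4j and Hist1h4k, of which 85.4% to 95.8% of bases were equal. For Hist1h4k this was its dimmer probe, and the array file matched its brightest to 4 RefSeq genes. The array file itself matched 12 of the 47 clustered probes to more than 1 RefSeq gene.

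A further 5 probes held the histone stem-loop, shown in capitals within 30 bases of each probe, because they show where on the message the probe lies. In Hist1h3a (chr13:23853756-23853785, minus strand), Hist1h3g (chr13:23627749-23627778, plus strand), Hist1h3i (chr13:21874784-21874813, minus strand) and Hist2h2bb (chr3:96074086-96074115, plus strand) the probe stopped 3, 5, 5 and 6 bases after the stem-loop. The probe of Hist2h2aa1 (chr3:96049949-96049978, plus strand) began near the stem-loop and ran on for 38 bases beyond it.
Hist1h3a: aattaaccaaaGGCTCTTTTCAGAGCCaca
Hist1h3g: cactttaaaGGCTCTTCTTAGAGCCaccca
Hist1h3i: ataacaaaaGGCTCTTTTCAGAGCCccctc
Hist2h2bb: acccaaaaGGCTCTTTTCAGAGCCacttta
Hist2h2aa1: taaaaaGGCTCTTTTCAGAGCCacccactg

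Values are scaled signals, the intensity of a probe divided by the 75th percentile of all 59305 non-control spots of its array, so that 1 stands for the 75th percentile. That percentile was 1564, 1241, 1307 and 1765 intensity units on the iPS-OSH, iPS-J, ESC and MEF arrays. A probe's value was compared between arrays and never with that of another probe. On these arrays 63, 59, 61 and 61 of the 63 histone genes were well above background, and no histone spot was saturated. The ESC spot of Hist3h2ba was called an outlier by the scanner software, so that gene has no ESC value. Probes printed 10 times gave a spot SD of 0.12 to 0.19 for a log2 difference between 2 arrays, but this covers spot noise alone. A single array per population allows neither a replicate check nor a test, so a difference is called by size only, at 2-fold. Where a probe was well above background on only 1 of the arrays compared, the fold is a lower bound, written as "at least". The MEF array, the ESC array and the pair of iPS arrays were scanned in different sessions, so session and population cannot be told apart, and neither can the strain and cell type of ESC.

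The populations matched their labels on pluripotent markers relative to MEF, while fibroblast markers stood higher in iPS-OSH, and endoderm markers in iPS-J, than in the other pluripotent lines. All 10 pluripotent markers were over 2-fold higher in each pluripotent line than in MEF, where Sox2, Zfp42 and Gdf3 were not well above background. Relative to ESC, 2 of the 10 were at least 2-fold lower in iPS-OSH, Zfp42 and Tdgf1, and 1 in iPS-J, Zfp42. The shares lower were 20% and 10%, beside 26.9% and 26.0% of all genes. The log2 difference of Zfp42 from ESC was -4.83 in iPS-OSH and -4.28 in iPS-J. Over 10 fibroblast markers the summed scaled signal was 273 for iPS-OSH, 52.9 for iPS-J and 43.0 for ESC, against 1043 for MEF, and in iPS-OSH all 10 were well above background. Over 10 endoderm markers the sum was 8.29 for iPS-OSH, 147.6 for iPS-J and 20.5 for ESC, against 3.82 for MEF, with Afp not well above background in any of the pluripotent lines. All 9 endoderm markers compared were over 2-fold higher in iPS-J than in ESC, with a median log2 difference of 3.43.

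Of the clustered histone genes past 2-fold, more were higher than lower in each pluripotent line relative to MEF, as scaled here, although in iPS-J the deposited value table gave slightly more lower ones. In iPS-J, 18 of 46 were at least 2-fold higher and 8 lower, where 16.5% of all 31492 genes compared were higher and 26.3% lower. In ESC, 18 of 45 were higher and 5 lower, beside 22.8% and 16.8% of all genes. In iPS-OSH, 8 of 47 were higher and 2 lower, beside 13.8% and 23.8% of all genes. The median log2 difference of the clustered genes was 0.24 for iPS-OSH, 0.67 for iPS-J and 0.81 for ESC, while the median of all genes was -0.33, -0.29 and 0.11. These 3 comparisons share the MEF array. Scaling moves the counts: in the deposited value table, which has no scaling between arrays, 10 clustered genes were higher and 11 lower in iPS-J, and 12 were higher and 6 lower in ESC. With spike-in scaling 12 were higher and 9 lower in iPS-J. Relative to the median of all genes, the clustered median in iPS-J stayed between 0.67 and 1.01 over 9 alternative settings, and that in ESC between 0.61 and 0.87.

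**Figure D1:**
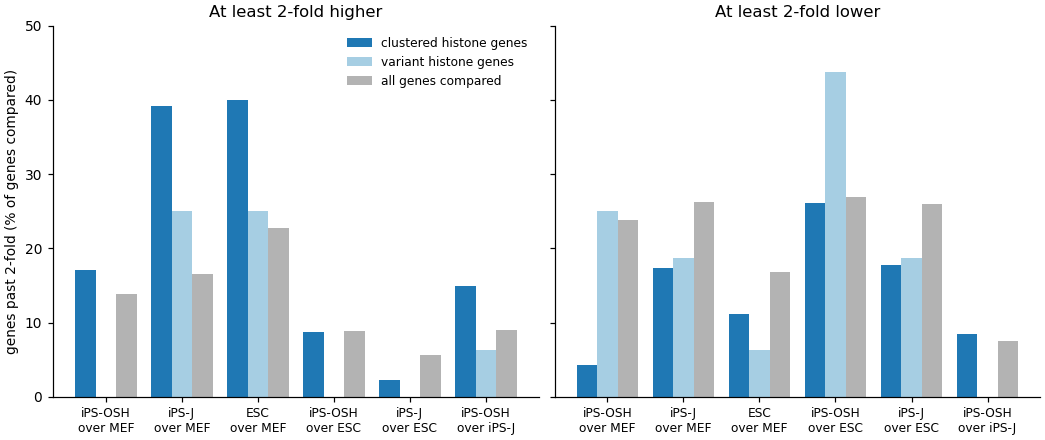
Share of clustered histone genes, variant histone genes and all genes compared (bars, in % of genes compared) that were at least 2-fold higher (left) or lower (right) in each of 6 comparisons of single arrays. Clustered genes reached 39.1% higher in iPS-J and 40% higher in ESC, both over MEF, beside 16.5% and 22.8% of all genes. No variant gene was at least 2-fold higher in iPS-OSH than in MEF or ESC, beside 13.8% and 8.88% of all genes.

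The linker histones, which bind DNA between nucleosomes, did not move together. Hist1h1a had a scaled signal of 2.38 for iPS-OSH, 2.73 for iPS-J and 4.04 for ESC, against 0.720 for MEF, so it was 3.30-, 3.79- and 5.61-fold higher. All 3 pluripotent lines lay above MEF. Hist1h1b, another linker histone of dividing cells, gave 17.5 for iPS-OSH, 26.2 for iPS-J and 30.03 for ESC, against 12.2 for MEF, a difference of over 2-fold in iPS-J and ESC. Hist1h1e separated the iPS lines, with 2.82 for iPS-OSH, 9.47 for iPS-J and 8.55 for ESC, against 4.199 for MEF. It was 3.36-fold lower in iPS-OSH than in iPS-J. Hist1h1c took the opposite course, with 7.45 for iPS-OSH, 2.36 for iPS-J and 1.53 for ESC, against 8.44 for MEF. It was 3.58-fold lower in iPS-J and 5.51-fold lower in ESC than in MEF, and the iPS-OSH value lay within 1.13-fold of MEF. Hist1h1t, the testis linker histone, gave 0.311 for iPS-OSH, 0.618 for iPS-J and 1.19 for ESC, against 0.608 for MEF, and was 3.84-fold lower in iPS-OSH than in ESC. The probe of Hist1h1d was above background in iPS-OSH alone, at 0.0407, which made it at least 3.10-fold higher than in MEF and at least 1.65-fold higher than in ESC.

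Of the clustered H2A genes, which supply a core histone that pairs with H2B, few passed 2-fold from MEF, although single genes differed by more. Of 14 genes, 0 were higher by 2-fold or more and 1 lower in iPS-OSH, 1 higher and 3 lower in iPS-J, and 2 higher and 2 lower in ESC, all relative to MEF. These shares, 7.14% higher and 21.4% lower in iPS-J and 14.3% each way in ESC, lay below those of all genes. The counts include 7 genes whose probes share sequence and so are not separate measurements. The 8 coding probes that share sequence, H2afj among them, gave 142.4 to 214 for iPS-OSH, 200.1 to 335 for iPS-J and 95.5 to 292 for ESC, against 142.7 to 188 for MEF. Hist1h2af, for example, gave 180.3 for iPS-OSH, 335 for iPS-J and 239 for ESC, against 183 for MEF, and Hist1h2ag gave 185, 285 and 278 in the pluripotent lines, against 186 for MEF. Their log2 differences had a median of -0.01 for iPS-OSH, 0.63 for iPS-J and 0.56 for ESC, so none of the 8 passed 2-fold from MEF. Hist2h2ac stood apart in the embryonic line, with 163.8 for iPS-OSH and 244 for iPS-J, against 95.5 for ESC, and it was 2.56-fold higher in iPS-J than in ESC. Its probe shared 45 of 50 bases with that of H2afj, which gave 187 for iPS-OSH and 269.9 for iPS-J, against 257 for ESC. Hist2h2ab was dim on every array, at 0.0287 for iPS-OSH, 0.0698 for iPS-J and 0.0381 for ESC, against 0.0225 for MEF, and was 3.10-fold higher in iPS-J than in MEF.

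Hist2h2aa1 and Hist3h2a were the 2 clustered H2A genes at least 2-fold lower than MEF in both iPS-J and ESC. Hist2h2aa1, with the probe that runs past the stem-loop, gave 9.04 for iPS-OSH, 1.54 for iPS-J and 2.20 for ESC, against 5.72 for MEF. It was 5.86-fold higher in iPS-OSH than in iPS-J. Hist2h2aa2, a copy of the same gene whose probe lies in the coding sequence, gave 142.4 for iPS-OSH, 236.8 for iPS-J and 237.1 for ESC, against 142.7 for MEF. The 2 probes thus ordered the populations differently, with iPS-OSH highest at the message end and iPS-J and ESC highest in the coding sequence. The Hist2h2aa2 probe is 1 of the 8 coding probes that share sequence, so its order may be that of several H2A genes. Hist3h2a gave 3.38 for iPS-OSH, 2.26 for iPS-J and 2.23 for ESC, against 7.19 for MEF, and was the only clustered H2A gene at least 2-fold lower than MEF in all 3 lines. Hist1h2ac, at 0.0750 for iPS-OSH and 0.0818 for ESC, against 0.0694 for MEF, was not well above background in iPS-J, where it was at least 2.15-fold lower than in MEF.

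Clustered H2B genes showed no common shift. Relative to MEF, 1 of 11 was higher and 1 lower in iPS-OSH, 2 of 11 were higher and 3 lower in iPS-J, and 3 of 10 were higher and 1 lower in ESC. In iPS-J these shares, 18.2% higher and 27.3% lower, were near the 16.5% and 26.3% of all genes. Hist1h2bc gave 24.6 for iPS-OSH, 7.79 for iPS-J and 4.50 for ESC, against 30.6 for MEF. It was 3.93-fold lower in iPS-J and 6.81-fold lower in ESC, with iPS-OSH within 1.24-fold of MEF, the same order of arrays as Hist1h1c. Hist1h2bm, whose coding probe the file matched to 4 RefSeq genes, gave 14.3 for iPS-OSH, 9.34 for iPS-J and 11.0 for ESC, against 12.02 for MEF. Hist2h2bb, with its probe ending at the stem-loop, gave 1.29 for iPS-OSH, 2.49 for iPS-J and 2.71 for ESC, against 1.17 for MEF, and was over 2-fold higher than MEF in iPS-J and ESC. Hist1h2ba, the testis form of H2B, gave 10.0 for iPS-OSH, 5.00 for iPS-J and 6.81 for ESC, against 8.31 for MEF, and was 2.01-fold higher in iPS-OSH than in iPS-J.

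A pair of dimmer H2B probes, those of Hist1h2bp and Hist1h2bb, were over 2-fold lower in both iPS lines than in ESC. Hist1h2bp gave 0.108 for iPS-OSH and 0.121 for iPS-J, against 0.372 for ESC, and Hist1h2bb gave 0.143 for iPS-OSH and 0.130 for iPS-J, against 0.337 for ESC. Hist1h2bg gave 0.197 for iPS-OSH and 0.0754 for iPS-J, against 0.221 for ESC, so only iPS-J was at least 2-fold below ESC. Hist3h2ba was above background at 0.0473 in iPS-OSH and 0.179 in iPS-J but not in MEF, so it was at least 3.06-fold and at least 11.6-fold higher than in MEF. Hist3h2bb gave 0.0507 for iPS-OSH, 0.0576 for iPS-J and 0.112 for ESC, against 0.112 for MEF.

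Clustered H3 genes, which encode the core histone whose tail carries many regulatory marks, lay above MEF in each pluripotent line, as scaled here, for 7 of 8 genes. Relative to MEF, 3 of 8 genes passed 2-fold upwards for iPS-OSH, 6 for iPS-J and 5 for ESC. These shares were 37.5%, 75% and 62.5%, beside 13.8%, 16.5% and 22.8% of all genes. The median log2 difference was 0.93 for iPS-OSH, 1.15 for iPS-J and 1.89 for ESC, and it stayed above 0 in all 9 alternative settings. The number past 2-fold upwards did move: over the settings it ran from 2 to 4 for iPS-OSH, 2 to 6 for iPS-J and 5 to 7 for ESC. Hist1h3a showed the widest spread of all histone genes against MEF, with 0.259 for iPS-OSH, 0.440 for iPS-J and 1.14 for ESC, against 0.0694 for MEF. It was 3.73-, 6.34- and 16.4-fold higher. Hist1h3f gave 1.18 for both iPS-OSH and iPS-J and 1.86 for ESC, against 0.382 for MEF. Hist1h3g gave 1.24 for iPS-OSH, 1.35 for iPS-J and 3.515 for ESC, against 0.623 for MEF, and was 2.60-fold lower in iPS-J than in ESC. For Hist1h3a, Hist1h3g and Hist1h3i ESC was highest, both iPS lines lay between ESC and MEF, and MEF was lowest. Hist1h3c gave 7.31 for iPS-OSH, 7.89 for iPS-J and 6.23 for ESC, against 3.53 for MEF, and was over 2-fold higher in both iPS lines. Hist1h3d, whose probe the file matched to 4 RefSeq genes, gave 38.7 for iPS-OSH, 48.5 for iPS-J and 70.3 for ESC, against 36.9 for MEF, and passed 2-fold in no line. The exception was Hist2h3c2, with 1.46 for iPS-OSH, 0.221 for iPS-J and 0.532 for ESC, against 1.47 for MEF. It was 6.66-fold lower in iPS-J than in MEF, while iPS-OSH and MEF differed by 1.01-fold. The Hist2h3c2 probe lies past the gene model. The Hist2h3c1 probe lies within its model, and the file matched it to 3 RefSeq genes, Hist2h3c2 among them. That probe gave 3.91 for iPS-OSH, 5.76 for iPS-J and 8.30 for ESC, against 2.15 for MEF. The exception may thus be one of the probe, which was not tested.

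Clustered H4 genes, which encode the partner of H3, had no member at least 2-fold lower than MEF, although an alternative setting gave 1 in iPS-J. The number that passed 2-fold upwards was 2 of 8 for iPS-OSH, 6 for iPS-J and 5 for ESC. These shares were 25%, 75% and 62.5%, beside 13.8%, 16.5% and 22.8% of all genes. The median log2 differences were 0.82, 1.58 and 1.44 and stayed above 0 in all 9 alternative settings. Hist4h4, counted as clustered by its name although it lies outside the clusters, gave 19.6 for iPS-OSH, 34.3 for iPS-J and 35.3 for ESC, against 6.65 for MEF. It was 2.95-, 5.15- and 5.32-fold higher. Hist1h4j gave 3.265 for iPS-OSH, 5.47 for iPS-J and 5.09 for ESC, against 1.35 for MEF, and Hist1h4k gave 59.4 for iPS-OSH, 102.9 for iPS-J and 96.6 for ESC, against 33.3 for MEF. In these genes iPS-J and ESC were close, and iPS-OSH lay between them and MEF. Hist2h4 gave 46.2 for iPS-OSH, 96.3 for iPS-J and 53.6 for ESC, against 33.3 for MEF, so that only iPS-J passed 2-fold. It was 2.08-fold lower in iPS-OSH than in iPS-J. A second, dimmer Hist2h4 probe gave 0.0503 for iPS-OSH, 0.0712 for iPS-J and 0.140 for ESC, against 0.0949 for MEF. On that probe iPS-J lay below MEF, at a log2 difference of -0.41, and iPS-OSH over iPS-J was -0.50, within 2-fold. Hist1h4i, with 1.83 for iPS-OSH, 1.33 for iPS-J and 1.36 for ESC, against 1.89 for MEF, did not pass 2-fold in any line on this probe, which lies past the gene model. Its other probe, within the model, gave 1.18 for both iPS-OSH and iPS-J and 2.13 for ESC, against 1.03 for MEF, and was past 2-fold in ESC, at a log2 difference of 1.05. The H4 counts include Hist1h4c, Hist1h4d and Hist1h4j, whose probes share sequence, and Hist1h4k, whose brightest probe the file matched to 4 RefSeq genes. Those include the genes matched by the Hist1h4j probe, so the values of these H4 genes may not be separate measurements.

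**Figure D2:**
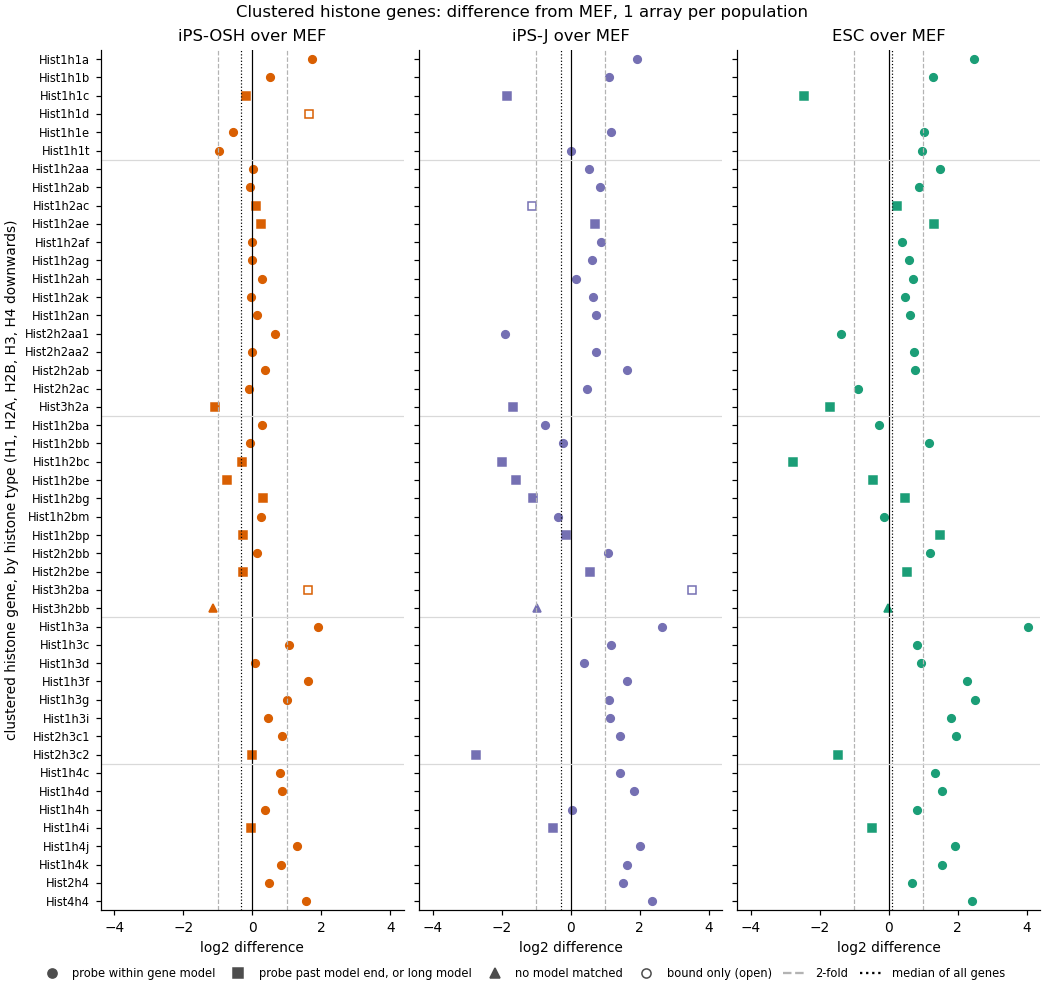
Log2 difference from MEF (x axis) of 47 clustered histone genes (rows, by histone type) in iPS-OSH, iPS-J and ESC, 1 array each; dashed lines mark 2-fold, the dotted line the median of all genes, open symbols lower bounds, and squares probes past the end of the gene model or on a long model. Most H3 and H4 genes lie right of 0, Hist1h3a reaches 4.04 in ESC, and Hist1h1c, Hist1h2bc and Hist2h3c2 lie far left in iPS-J and ESC but near 0 in iPS-OSH.

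The clustered genes at least 2-fold lower than MEF in iPS-J and ESC were mostly read past the end of the gene model or on a long model. For each clustered gene the position of the probe in its target transcript was set beside the length of the gene in RefSeq (GRCm38.p6), a split chosen after the values were seen and given as a description. For 33 genes the probe ended within the RefSeq model, for 9 it ended beyond it, and for 4 the model was itself longer than 1200 bases, while Hist3h2bb matched no RefSeq gene. Of the 33 genes read within the model, 17 were at least 2-fold higher and 1 lower in iPS-J than in MEF, and 16 were higher and 1 lower in ESC. These shares were 51.5% and 3.03% in iPS-J, beside 16.5% and 26.3% of all genes. In ESC they were 48.5% and 3.03%, beside 22.8% and 16.8%. In iPS-OSH 6 were higher and 0 lower, 18.2% and 0%, beside 13.8% and 23.8%. The gene that was lower in both iPS-J and ESC was Hist2h2aa1. Hist1h3a, Hist1h3g, Hist1h3i and Hist2h2bb, whose probes stopped just after the stem-loop, were over 2-fold higher in both lines. Their log2 differences in ESC were 4.04, 2.50, 1.82 and 1.21, and these probes are among those within the model. Of the 13 genes read past the model or on a long model, 1 of 12 compared was higher and 7 lower in iPS-J, and 2 of 11 were higher and 4 lower in ESC. These shares were 8.33% and 58.3% in iPS-J and 18.2% and 36.4% in ESC, so the share higher in ESC was near that of all genes. In iPS-OSH 2 of 13 were higher and 1 lower, 15.4% and 7.69%. Median log2 differences from MEF were -0.04, -1.10 and -0.46 in iPS-OSH, iPS-J and ESC for the genes read past the model or on a long model, against 0.35, 1.09 and 0.97 for genes read within it. Over the alternative settings the ESC median of the 13 genes turned positive in 1 of 9 cases, and the iPS-J median stayed below 0 in all 9. Hist1h1c (probe bases 1342 to 1401, gene model of 725 bases), Hist2h3c2 (bases 957 to 1016, model of 649 bases) and Hist3h2a (bases 767 to 826, model of 508 bases) lay past the model, and Hist1h2bc had a model of 8282 bases. Which form of each message the probes took up was not tested.

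**Figure D3:**
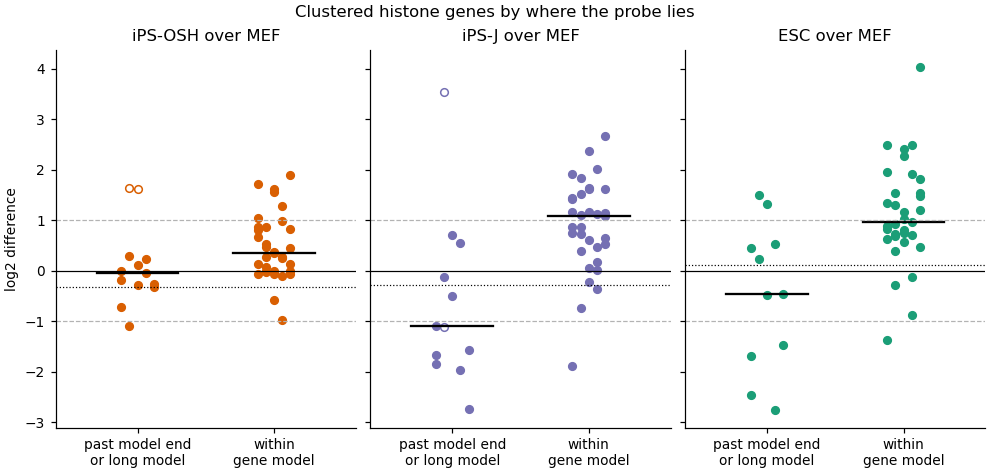
Log2 difference from MEF (y axis) of clustered histone genes in iPS-OSH, iPS-J and ESC, by where the probe lies on the message; each point is a gene on single arrays, open points are bounds, bars are medians, dashed lines mark 2-fold and the dotted line the median of all genes. In iPS-J the 33 genes read within the model have a median of 1.09 and those read past it or on a long model a median of -1.10.

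Between the iPS lines and ESC, clustered genes were lower more often than higher in iPS-OSH, at about the share of all genes. In iPS-OSH, 4 of 46 were at least 2-fold higher and 12 lower than in ESC, beside 8.88% and 26.9% of all genes. In iPS-J, 1 of 45 was higher, Hist2h2ac, and 8 were lower than in ESC, beside 5.61% and 26.0% of all genes. The median log2 difference of clustered genes was -0.61 in iPS-OSH and -0.20 in iPS-J, where all genes had -0.29 and -0.22. Spike-in scaling gave 6 higher and 6 lower in iPS-OSH, and the deposited value table gave 5 and 7, so the size of this split rests on the scaling. The clustered median in iPS-OSH over ESC stayed below 0 in all 9 alternative settings, between -0.80 and -0.24. At a 4-fold threshold 3 were higher and 1 lower in iPS-OSH, where 34.0% of the calls over all genes were higher. The 4 genes higher in iPS-OSH than in ESC were Hist1h2bc (5.47-fold), Hist1h1c (4.86-fold), Hist2h2aa1 (4.10-fold) and Hist2h3c2 (2.75-fold), and they stayed higher under each of the scalings tried.

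The same 4 genes were also over 2-fold higher in iPS-OSH than in iPS-J. Relative to iPS-J, in iPS-OSH 7 of 47 clustered genes passed 2-fold upwards and 4 downwards, beside 8.98% and 7.47% of all genes. Hist2h3c2 was 6.60-fold higher, Hist2h2aa1 5.86-fold, Hist1h1c 3.16-fold, Hist1h2bc 3.16-fold and Hist1h2bg 2.62-fold. Hist3h2ba was 3.78-fold lower, Hist1h1e 3.36-fold, Hist2h2ab 2.43-fold and Hist2h4 2.08-fold. Across the whole set the median was -0.53, that is, lower in iPS-OSH, while the median of all genes was 0.00. Over the alternative settings this clustered median lay between -0.56 and -0.19, and relative to the median of all genes between -0.55 and -0.30. With probes of 1 RefSeq gene only it was -0.19. Fibroblast markers moved with the higher genes: all 10 passed 2-fold upwards in iPS-OSH relative to iPS-J, with a median log2 difference of 2.62, and relative to ESC, with a median of 2.63. Endoderm markers moved with the lower genes: all 9 compared were over 2-fold lower in iPS-OSH than in iPS-J, with a median log2 difference of -4.21. In bulk RNA a share of fibroblast-like or endoderm-like cells and a level within each cell cannot be told apart, and the part of either marker list in these differences was not tested.

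Variant genes passed 2-fold from MEF at shares that lay above those of all genes in some cases and below them in others. In iPS-OSH 0 of 16 passed 2-fold upwards and 4 downwards, in iPS-J 4 were higher and 3 lower, and in ESC 4 were higher and 1 lower, with median log2 differences of 0.11, 0.41 and 0.36. The shares were 0% higher and 25% lower in iPS-OSH, beside 13.8% and 23.8% of all genes. They were 25% higher and 18.8% lower in iPS-J, beside 16.5% and 26.3%, and 25% higher and 6.25% lower in ESC, beside 22.8% and 16.8%. In the deposited value table these medians were -0.07, -0.09 and -0.07, so the sign of the median rests on the scaling. Relative to the median of all genes, the variant median was above 0 over the 9 alternative settings, between 0.33 and 0.44 for iPS-OSH, 0.49 and 0.71 for iPS-J, and 0.088 and 0.37 for ESC. Relative to ESC, 0 were higher and 7 lower in iPS-OSH, and 0 were higher and 3 lower in iPS-J. The shares lower were 43.8% and 18.8%, beside 26.9% and 26.0% of all genes. Of all genes, 8.88% and 5.61% were higher. With spike-in scaling 0 were lower in iPS-OSH than in ESC, and under quantile normalization 0 were lower and 1 higher in iPS-J than in ESC.

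Among linker variants, H1fx, a linker histone outside the clusters, gave 0.537 for iPS-OSH, 0.794 for iPS-J and 1.17 for ESC, against 0.359 for MEF. It was 2.21-fold higher in iPS-J and 3.25-fold higher in ESC than in MEF. H1f0, the linker histone linked to cells that stop dividing, gave 0.0938 for iPS-OSH, 0.185 for iPS-J and 0.141 for ESC, against 0.142 for MEF, and passed 2-fold in no line. The germ cell forms, like H1f0, were dim on every array. The oocyte form H1foo gave 0.203 for iPS-OSH, 0.269 for iPS-J and 0.207 for ESC, against 0.122 for MEF, and was 2.20-fold higher in iPS-J. The spermatid form H1fnt gave 0.0252 for iPS-OSH and 0.0551 for ESC, against 0.0617 for MEF. It was 2.45-fold lower in iPS-OSH than in MEF. In iPS-J H1fnt was not well above background and was at least 2.48-fold lower than in MEF.

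Of the H2A variants, H2afv and H2afx were highest in ESC and H2afz in iPS-J. H2afv and H2afz both encode forms of H2A.Z, which sits beside the start sites of active genes. H2afv gave 32.4 for iPS-OSH, 49.0 for iPS-J and 69.0 for ESC, against 20.2 for MEF, which was 2.42-fold higher in iPS-J and 3.41-fold higher in ESC. H2afz gave 193.2 for iPS-OSH, 252 for iPS-J and 146.2 for ESC, against 134.3 for MEF, within 2-fold throughout on this probe. A dimmer H2afz probe gave 43.6 for iPS-OSH, 92.9 for iPS-J and 72.7 for ESC, against 48.8 for MEF. On that probe iPS-OSH was lowest and was past 2-fold below iPS-J, at a log2 difference of -1.09. H2afx encodes H2A.X, which is marked at DNA breaks, and gave 22.9 for iPS-OSH, 44.9 for iPS-J and 58.0 for ESC, against 21.3 for MEF. It was 2.11-fold higher in iPS-J and 2.73-fold higher in ESC than in MEF, while iPS-OSH lay within 1.08-fold of MEF. For both H2afv and H2afx the iPS-OSH value was over 2-fold below that of ESC, by 2.13-fold and 2.53-fold, which spike-in scaling brought under 2-fold.

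Other H2A variants were lower than MEF or dim. H2afy2, the second macroH2A gene, which is linked to silent chromatin, gave 5.44 for iPS-OSH, 7.04 for iPS-J and 7.01 for ESC, against 10.9 for MEF, 2.01-fold lower in iPS-OSH. H2afy3, a noncoding RNA per the array file, gave 2.25 for iPS-OSH, 3.39 for iPS-J and 5.27 for ESC, against 7.58 for MEF. H2afb3 gave 1.18 for iPS-OSH, 0.451 for iPS-J and 0.871 for ESC, against 2.64 for MEF. Its brightest probe lies on chromosome 17 and is described in the file as another gene, while its other probe lies on the X chromosome and gave 0.0642 for iPS-OSH, 0.0477 for iPS-J and 0.165 for ESC, against 0.0698 for MEF, so the name of the brighter probe is uncertain. H2afb2 gave 0.0906 for iPS-OSH and 0.109 for iPS-J, against 0.226 for ESC and 0.144 for MEF, and H2afb1 gave 0.0252 for iPS-OSH, against 0.0564 for ESC and 0.0226 for MEF.

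H3f3a and H3f3b, which encode the same replacement form of H3, were close on all arrays. H3f3a gave 47.5 for iPS-OSH, 60.2 for iPS-J and 39.8 for ESC, against 44.2 for MEF. H3f3b gave 58.3 for iPS-OSH, 69.2 for iPS-J and 66.1 for ESC, against 43.9 for MEF. On these probes both lay within 1.58-fold of MEF in every line. A second H3f3a probe had a log2 difference from MEF of 0.68 in iPS-J. The dimmer H3f3b probes put iPS-OSH below MEF, at -0.16 and -0.53, where the brightest put it above, at 0.41. All of these further probes lay within 2-fold of MEF in every line.

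**Figure D4:**
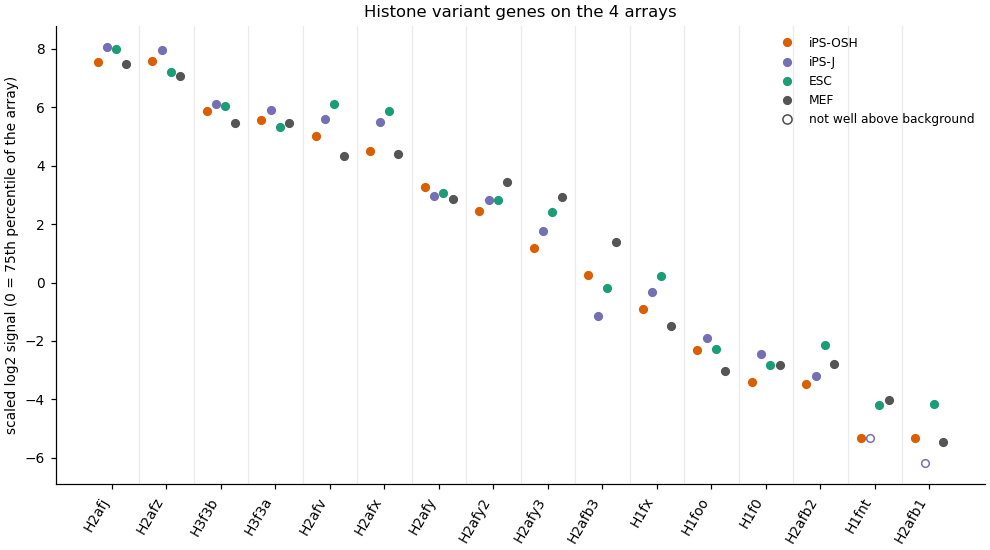
Scaled log2 signal (y axis, 0 is the 75th percentile of the array) of the 16 variant histone genes on the iPS-OSH, iPS-J, ESC and MEF arrays; each point is 1 array, and open points are not well above background. Only the 4 points of a gene can be compared, since each gene has its own probe; H2afv and H2afx are highest in ESC and H2afy3 is highest in MEF.

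The probes of H2afy, the first macroH2A gene, disagreed by message form. Macro histones carry a large extra domain, and the gene makes several spliced messages. The array file lists 4 RefSeq transcripts of H2afy. The brightest probe matched all 4 and the probe shown beneath it matched 2, and the bases are given because the rest of this result rests on which messages they can take up. The first lies at chr13:56184528-56184587 and the second at chr13:56189613-56189672, both in mm9 on the minus strand.
H2afy, all 4 transcripts: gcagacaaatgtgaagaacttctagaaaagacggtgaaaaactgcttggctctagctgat
H2afy, 2 transcripts: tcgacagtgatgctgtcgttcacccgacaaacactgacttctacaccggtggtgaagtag
The probe of all 4 transcripts gave 9.76 for iPS-OSH, 7.75 for iPS-J and 8.30 for ESC, against 7.28 for MEF, and another such probe gave 2.07 for iPS-OSH, 1.89 for iPS-J and 2.47 for ESC, against 1.56 for MEF. Neither passed 2-fold. The probe of 2 transcripts gave 0.870 for iPS-OSH, 0.0964 for iPS-J and 0.112 for ESC, against 0.989 for MEF. Its log2 difference from MEF was -0.18 for iPS-OSH, -3.36 for iPS-J and -3.14 for ESC, and it was 3.17 higher in iPS-OSH than in iPS-J on the log2 scale. The iPS-OSH array was thus level with MEF on this probe, as for Hist1h1c, Hist1h2bc and Hist2h3c2, and the part of fibroblast markers was not tested here either.

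**Figure D5:**
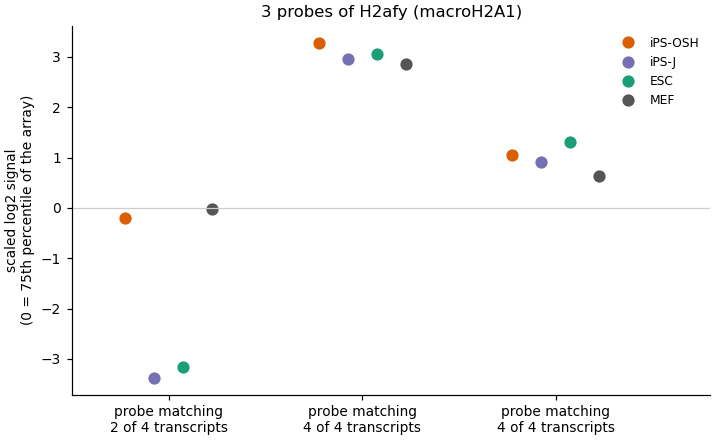
Scaled log2 signal (y axis, 0 is the 75th percentile of the array) of 3 H2afy probes on the iPS-OSH, iPS-J, ESC and MEF arrays, each point 1 array. The probe that matches 2 of 4 transcripts is at -0.20 for iPS-OSH, -3.37 for iPS-J and -3.16 for ESC, against -0.02 for MEF, whereas the 4 populations lie close together on both probes that match all 4.

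Over all genes with more than 1 probe, H2afy among them, the probes did not always run together. Of 13 further probes for 11 genes, 10 had the same direction as the brightest in iPS-J over MEF, 8 in ESC over MEF, 5 in iPS-OSH over MEF and all 13 in iPS-OSH over iPS-J. The further probe was past 2-fold against the direction of the brightest for 3 probes in ESC over MEF, 1 in iPS-J over MEF and 1 in iPS-OSH over ESC. A second Hist1h2ak probe gave 41.2 for iPS-OSH, 63.2 for iPS-J and 112.4 for ESC, against 27.3 for MEF, so it passed 2-fold in iPS-J and ESC where the coding probe that shares sequence with its family did not.

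Genes that make, process and place histones were also followed. In the list for histone gene transcription and 3′ processing, 3 of 22 compared were higher and 2 lower in iPS-OSH, 6 of 22 higher and 3 lower in iPS-J, and 5 of 21 higher and 2 lower in ESC, all against MEF. The shares higher were 13.6% for iPS-OSH and 23.8% for ESC, near the 13.8% and 22.8% of all genes, and 27.3% for iPS-J, beside 16.5%. Slbp, the protein that binds the stem-loop, gave 3.88 for iPS-OSH, 4.97 for iPS-J and 2.98 for ESC, against 1.68 for MEF. Zfp473, a zinc finger protein of the histone processing complex, gave 2.78 for iPS-OSH, 5.74 for iPS-J and 3.55 for ESC, against 0.0943 for MEF, and Pou2f1, a factor that binds the octamer motif, gave 3.39, 4.76 and 3.30 in the pluripotent lines, against 0.753 for MEF. Both were over 2-fold higher in all 3 lines. Casp8ap2, needed for histone gene transcription in S phase, gave 2.53 for iPS-OSH, 2.64 for iPS-J and 3.86 for ESC, against 1.84 for MEF. Npat, which switches on clustered histone genes, was not well above background on any array.

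Histone chaperones, which carry new histones to DNA, were higher or within 2-fold for the most part. Of 20 genes that act at replication, 5 passed 2-fold upwards from MEF for iPS-OSH, 8 for iPS-J and 8 for ESC, and 0 were lower in any line. The shares higher were 25%, 40% and 40%, beside 13.8%, 16.5% and 22.8% of all genes. Of all genes, 23.8%, 26.3% and 16.8% were lower. Hat1, which acetylates new H4, gave 26.5 for iPS-OSH, 35.1 for iPS-J and 29.4 for ESC, against 4.77 for MEF. Nasp, a carrier of linker histones and of H3 with H4, gave 58.7 for iPS-OSH, 56.3 for iPS-J and 45.2 for ESC, against 14.7 for MEF. Of 22 chaperones and remodellers of variant histones, 7 were higher and 2 lower in iPS-OSH, 7 higher and 0 lower in iPS-J, and 4 higher and 1 lower in ESC. That is 31.8% higher in each iPS line, beside 13.8% and 16.5% of all genes for iPS-OSH and iPS-J, and 18.2% in ESC, beside 22.8%. Hira, which places the replacement H3, gave 1.94 for iPS-OSH, 1.97 for iPS-J and 1.52 for ESC, against 0.683 for MEF.

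The other lists followed the clustered genes only in part. Of 28 S phase and replication genes, 12 were higher and 1 lower in iPS-OSH, 16 higher and 1 lower in iPS-J, and 10 higher and 1 lower in ESC than in MEF, with median log2 differences of 0.79, 1.14 and 0.85. The shares higher were 42.9%, 57.1% and 35.7%, beside 13.8%, 16.5% and 22.8% of all genes. Mcm10, which helps to open DNA for copying, gave 14.9 for iPS-OSH, 18.2 for iPS-J and 13.3 for ESC, against 3.06 for MEF. For the centromere, Cenpa, the H3 variant that marks it, gave 10.4 for iPS-OSH, 17.6 for iPS-J and 16.0 for ESC, against 8.49 for MEF, and its chaperone Hjurp gave 0.549, 0.394 and 0.394 in the pluripotent lines, against 0.319 for MEF. Of the 8 centromere genes 1 passed 2-fold upwards for iPS-OSH, 4 for iPS-J and 2 for ESC, and 0 were lower. In iPS-OSH and ESC these shares, 12.5% and 25%, were near those of all genes, and in iPS-J the share was 50%, beside 16.5%. Of 7 histone-like proteins of germ cells, 0 were higher and 1 lower in iPS-OSH, 0 passed 2-fold in iPS-J, and 2 were higher in ESC, namely Tnp1, a sperm packing protein, with 0.488 for ESC against 0.138 for MEF, and Npm2, an egg chaperone, with 0.361 for ESC against 0.121 for MEF. The share higher in ESC was 28.6%, beside 22.8% of all genes, and that lower in iPS-OSH was 14.3%, beside 23.8%.

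RefSeq promoters (GRCm38.p6, 250 bases before and 50 after the start) were available for 53 of the 63 genes and were searched on both strands for 3 short motifs known from histone promoters. The CCAAT box, CCAAT, stood in 87.8% of 41 clustered promoters, against 37.4% of all 32851 promoters. The TATA box, TATAAA, stood in 61.0% of clustered promoters, against 13.6% of all. The octamer, ATTTGCAT, stood in 31.7% of clustered promoters, against 1.74% of all, namely in 6 of 8 H2B and 7 of 14 H2A promoters and in 0 of 6 H1, 6 H3 and 7 H4 promoters. Of the 12 variant promoters, 7 held a CCAAT box, 1 a TATA box and 1 an octamer. These matches describe the letters of the windows and not any factor.

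The last 200 bases before the start are shown for a linker, an H3 and an H2B gene, with every match in capitals, to let the layouts be compared. They lie at chr13:23763468-23763667 (Hist1h1a), chr13:23535218-23535417 (Hist1h3g) and chr13:23746534-23746733 (Hist1h2bb) in GRCm38.p6, all on the plus strand.
Hist1h1a: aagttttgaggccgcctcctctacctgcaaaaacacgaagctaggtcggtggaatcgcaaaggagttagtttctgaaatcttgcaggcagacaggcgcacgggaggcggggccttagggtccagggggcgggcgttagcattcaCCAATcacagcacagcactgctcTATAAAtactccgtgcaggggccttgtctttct
Hist1h3g: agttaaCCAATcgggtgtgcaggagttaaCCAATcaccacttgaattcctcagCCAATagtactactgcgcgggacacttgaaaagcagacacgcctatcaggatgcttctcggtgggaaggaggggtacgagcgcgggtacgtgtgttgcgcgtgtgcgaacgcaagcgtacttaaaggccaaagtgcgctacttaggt
Hist1h2bb: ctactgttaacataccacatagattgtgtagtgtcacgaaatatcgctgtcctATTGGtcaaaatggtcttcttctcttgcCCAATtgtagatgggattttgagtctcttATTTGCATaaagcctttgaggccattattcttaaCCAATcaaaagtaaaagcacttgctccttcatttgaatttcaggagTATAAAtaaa
Hist1h1a held a CCAAT box followed by a TATA box close to the start. Hist1h3g held 3 CCAAT boxes far from the start and neither other motif. Hist1h2bb held 3 CCAAT boxes, the first of them on the opposite strand, with the octamer between them and a TATA box at the end.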

How the data were processed

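The intensity values were deposited as scanner output of 4 arrays of 1 colour, in which Agilent Feature Extraction 10.5.1.1 had subtracted background within each array, per the file headers. The deposited value table held the same intensity rounded to whole numbers, with deviations of at most 0.497%. Control spots and spots called outliers were left out, spots of a probe were averaged, and each array was divided by the 75th percentile of its 59305 non-control spots before log2 was taken. A gene was represented by its brightest probe over the 4 arrays and entered a comparison if at least 1 of both arrays called it well above background. A bound that pointed against its own direction was set to a log2 difference of 0. Differences were called at 2-fold over 6 pairs of arrays, since 1 array per group allows no test. Depth cannot be given for arrays, and their number limits the precision.

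RefSeq tables (GRCm38.p6) held 60 of the 63 genes, and probe coordinates are those of the files, in mm9. Named genes were all detected variant genes and, of the clustered genes, the 3 largest measured differences and 2 largest bounds in each direction and comparison and the 2 brightest of each type. The 9 further gene lists held 140 memberships, 139 of them on the arrays. The members, lists and rules were chosen with earlier results of these data known.

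The 10 alternatives planned were normexp correction in limma 3.58.1 (R 4.3.3; offset 50), quantile normalization, the percentile over probes detected on all arrays, 8 spike-in probes, the value table, detection on both arrays, no filter, the median over probes, the probe detected most often and a 4-fold threshold. Restriction to probes of 1 RefSeq gene and the split by probe position were chosen after seeing the data. The procedure was tested on simulated data. Tables were handled with pandas 2.3.3 and numpy 2.4.6.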

Additional observations from a re-analysis of the deposited data

How the results depend on the processing

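No call by size reversed: over the alternatives with a value, all 1089 recomputed values of the 122 member differences past 2-fold kept their direction. This outcome was nearly fixed in advance and says little about how firm the calls are. Only differences of at least 1 log2 unit were recomputed, while scaling moved the median of all genes by less. Alternatives that changed only the filter left measured differences as they were. Of these 122, 93 stayed past 2-fold with normexp, 100 with quantile normalization, 121 with the percentile over probes detected on all arrays, 93 with spike-in scaling and 90 in the value table. Scaling moved the median of all genes by -0.51 to 0.37 log2 units, and the cause was not tested, so the medians of the histone sets moved with it. With quantile normalization the variant median was 0.28 in iPS-OSH over MEF and the clustered median was -0.30 in iPS-OSH over iPS-J. With the percentile over probes detected on all arrays, the clustered and variant medians were 1.06 and 0.61 in ESC over MEF, -0.80 and -0.71 in iPS-OSH over ESC, and -0.40 and -0.44 in iPS-J over ESC. With spike-in scaling they were 0.46 and 0.20 in iPS-J over MEF, 0.50 and 0.055 in ESC over MEF, -0.24 and -0.14 in iPS-OSH over ESC, and -0.25 and -0.10 in iPS-OSH over iPS-J. In the value table they were 0.066 and -0.067 in iPS-OSH over MEF, 0.17 and -0.090 in iPS-J over MEF, 0.38 and -0.066 in ESC over MEF, -0.35 and -0.26 in iPS-OSH over ESC, and -0.19 and -0.043 in iPS-OSH over iPS-J. Detection on both arrays gave a variant median of -0.047 in iPS-J over ESC. Probes of 1 RefSeq gene gave clustered medians of -0.51 in iPS-J over ESC and -0.19 in iPS-OSH over iPS-J.

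Counts at 2-fold also moved. Over 9 settings the clustered genes lower in iPS-OSH than in ESC numbered 6 to 15, where 12 were reported, and those lower in iPS-J than in ESC 3 to 11, where 8 were reported. Relative to iPS-J, 5 to 9 were higher in iPS-OSH and 2 to 4 lower. Variant genes higher in iPS-J than in MEF numbered 0 to 4, and those lower in ESC than in MEF 0 to 2. No paired analysis was possible because each population had 1 array. For arrays, the limit is signal over background: 58 of the 63 genes were well above it on all 4 arrays, and Hist1h1d, Hist1h2ac, Hist3h2ba, H1fnt and H2afb1 have bounds in some comparisons.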
